A study of Sus scrofa with 9 samples.

Results

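Control cultures of porcine preadipocytes were profiled in 3 of the 9 libraries of a study of lnc*PLAAT3*-AS, an antisense long noncoding RNA of the *PLAAT3* locus. The 3 libraries were chosen by their sample labels alone, and they are described here without comparison to the remaining 6, in which that RNA was overexpressed from a plasmid or inhibited with an siRNA. The cells were primary preadipocytes from the back fat of female Rongchang piglets, labelled wild type (WT), primary adipocyte and day 8. They were grown in DMEM with fetal bovine serum and treated with insulin, 3-isobutyl-1-methylxanthine (IBMX) and dexamethasone to induce adipogenic differentiation. The series text names a blank control, the text of the paper a negative control and a figure legend of the paper a negative control construct called si-NC. What the control cells of these libraries were transfected with, if anything, is therefore not settled. The age of the piglets is not given in the sources used here. Cells of the same pig were used for the 3 repeats of the cell experiments, and the p-values below therefore measure the spread between cultures of 1 animal.

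Preadipocytes are fibroblast-like cells of the stroma of fat tissue. Exposed to insulin, a glucocorticoid and an agent that raises cyclic AMP, they first express the transcription factors C/EBPβ and C/EBPδ, which turn on PPARγ and C/EBPα. These in turn switch on the genes of the fat cell, among them those for lipid droplet coat proteins, fatty acid transport and secreted hormones such as adiponectin and leptin, while the collagens and fibronectin of the precursor decline. A culture that has been induced can hold cells at any of these stages, and a bulk library reads their sum. More cells of a type and more RNA per cell cannot be told apart in such data.

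Levels are given in FPKM, the deposited counts scaled by gene length and library size, as the mean ± SD of the 3 libraries. Spread between libraries is given in CPM, counts scaled to a common library size with TMM factors, which compares libraries and not genes. Counts summed to 17099200, 17109600 and 17434400 in replicates 1, 2 and 3, and 14738, 14723 and 14711 of 16562 genes had a count. No count was found in any control library for 1011 genes (6.10%), and 0 counts in all 3 libraries allow a level of up to 0.0581 CPM over the group, for counting error only. Replicate 3 stood apart from the others in most of the genes of largest spread, as the sections on spread describe. Over all tested genes replicates 1 and 3 differed most. Shorter genes had higher counts in replicate 3 than in replicate 1 and longer genes lower, with median log2 ratios of 0.15 in the shortest 3018 genes by implied length and -0.15 in the longest 3018. Replicate 2 lay between them in this shift. Its ratios over replicate 1 were 0.0705 in the shortest genes and -0.0801 in the longest. Those of replicate 3 over replicate 2 were 0.0755 and -0.0695.

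By FPKM the most abundant transcripts were those of ribosomal proteins, the collagenous matrix and the actin cytoskeleton. Among the 20 genes of highest FPKM were 8 ribosomal protein genes, and among the first 50 there were 30. Short genes rank higher by FPKM than by counts, and the implied length of *RPS27* was 114 bases. All ribosomal protein genes together took 6.58, 7.06 and 7.53% of counts in replicates 1, 2 and 3. *RPS27*, a protein of the small ribosomal subunit, led with 9759, 11847 and 10984 FPKM in replicates 1, 2 and 3, but its estimated counts were not whole, so that reads may be shared with copies of the gene and its level is uncertain. *COL1A1*, the alpha 1 chain of collagen I, followed with 8550, 9260 and 8609 FPKM. Next came *TMSB10*, a thymosin that binds actin monomers, with 8023 ± 558 FPKM. *GAPDH*, an enzyme of glycolysis, stood at 6740 ± 372 FPKM, and *EEF1A1*, which brings aminoacyl-tRNA to the ribosome, at 6040 ± 165 FPKM. Ranked by counts instead of FPKM, which gives another order because longer genes collect more reads, the first 10 genes took 17.3 ± 0.141% of all counts. The first 100 by counts took 38.8 ± 0.362%.

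**Figure D1:**
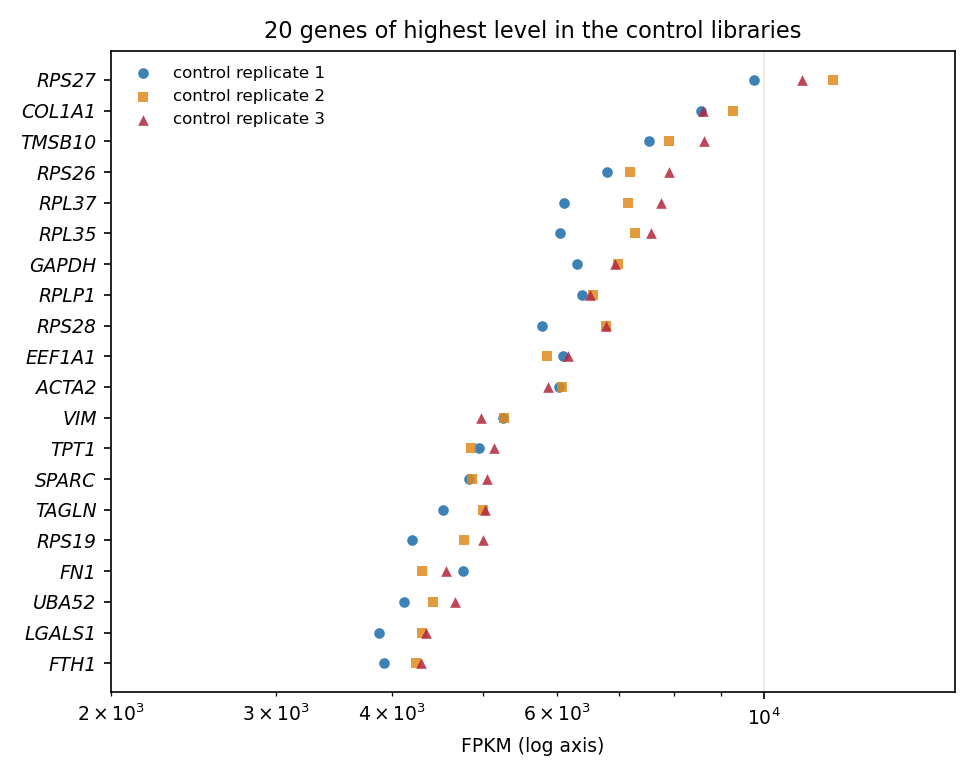
FPKM, on a log axis, of the 20 genes of highest mean level in the control libraries, with 1 point for each of the 3 replicates. The matrix genes *COL1A1*, *SPARC* and *FN1* lie among ribosomal protein and cytoskeleton genes, and *COL1A1* reached 8550 to 9260 FPKM.

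Expression was broad. A mean of at least 1 FPKM was reached by 10571 genes (63.8%), at least 10 FPKM by 5167 (31.2%), at least 100 FPKM by 746 (4.50%) and at least 1000 FPKM by 129 (0.779%). The median over all genes was 3.40 FPKM, against which the medians of the gene lists below can be read. Counts of list members that reach a limit can be read against the share of all genes at that limit.

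Fibroblast and stromal markers were high. *VIM*, the intermediate filament protein of mesenchymal cells, had 5251, 5268 and 4979 FPKM in replicates 1, 2 and 3. *FN1*, which encodes fibronectin, had 4763, 4298 and 4570 FPKM. Neither gene varied beyond genes of like level. Of 33 preadipocyte and stromal markers in the file, 29 reached 1 FPKM and 13 reached 100 FPKM, with a median of 50.4 FPKM. Surface markers of mesenchymal cells were among them, with *THY1* (CD90) at 395 FPKM, *PDGFRB* at 127 FPKM, *ENG* (CD105) at 89.2 FPKM, *CD44* at 87.2 FPKM and *PDGFRA*, a receptor that marks adipocyte precursors, at 54.1 FPKM. Precursor markers of the same list differed widely. *MFAP5* had 49.9 FPKM, *TCF21* 8.27 FPKM, *DPP4* 7.22 FPKM, *CD55* 4.21 FPKM and *EBF2*, an early factor of the adipose lineage, 1.89 FPKM. *CD34* had 57 counts over the 3 libraries and a mean of 0.427 FPKM, *DLK1*, which encodes the preadipocyte factor Pref-1, had 2 counts, and *PI16*, which with *DPP4* marks fascial fibroblast precursors, had 21 counts.

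The early adipogenic factors were well expressed and the late ones were low. *CEBPD*, which encodes C/EBPδ, had 424, 468 and 468 FPKM in replicates 1, 2 and 3, and *CEBPB* had 132, 143 and 167 FPKM. *PPARG*, the nuclear receptor that directs fat cell formation, had 5.12, 4.98 and 4.53 FPKM. *CEBPA* had 5.65, 6.59 and 6.87 FPKM. Both late factors were thus present in every replicate, at levels between the median of all genes (3.40 FPKM) and that of the genes tested for spread (7.53 FPKM). *SREBF1*, a transcription factor of lipid synthesis, was at 83.7 FPKM and *NR1H3*, the liver X receptor alpha, at 46.1 FPKM. *PRDM16* and *PPARGC1A*, regulators of brown and beige fat, had means of 0.25 and 0.123 FPKM. Of 23 differentiation genes in the file, 21 reached 1 FPKM and 13 reached 10 FPKM, with a median of 10.6 FPKM.

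Several products that define a mature fat cell were at or near 0, although the cells were labelled primary adipocyte. *LEP* (leptin), *RETN* (resistin) and *AQP7*, the glycerol channel of fat cells, had 0 counts in all 3 libraries. *ADIPOQ* (adiponectin) had 11 counts over the 3 libraries, *PLIN1*, the lipid droplet coat protein of mature fat cells, had 12, and *SLC2A4*, the insulin-responsive glucose transporter, had 6. Of 34 genes on the list of adipocyte products and lipid droplets, 18 reached 1 FPKM, 13 reached 10 FPKM and 0 reached 100 FPKM, with a median of 1.12 FPKM.

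The members at 10 FPKM or more included genes of general lipid handling and some genes tied to fat cells. Among them *CFD* (adipsin) had 14.6 FPKM and *ANGPTL4* had 10.7 FPKM. *LPL*, the lipoprotein lipase, which preadipocytes express early, had 29.3, 27.4 and 34.2 FPKM in replicates 1, 2 and 3, and *FABP4*, a fatty acid carrier of fat cells, had 13.0, 12.6 and 13.7 FPKM. *PLAAT3*, the phospholipase of fat tissue whose locus gives the antisense RNA its name, had 9.81, 12.5 and 10.99 FPKM. Whether the counts of *PLAAT3* hold reads of that antisense RNA cannot be told, since the use of strand in counting is not given. The droplet coat genes *PLIN2* and *PLIN3*, which are used in many cell types, stood at 24.0 and 24.1 FPKM. The caveola genes *CAVIN1* and *CAV1* reached 91.2 and 62.1 FPKM, *BSCL2* (seipin) 77.9 FPKM, *FABP5* 67.3 FPKM and *PNPLA2*, the first lipase of triglyceride breakdown, 48.1 FPKM. *CD36*, a fatty acid translocase, was at 1.05 ± 0.159 FPKM.

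**Figure D2:**
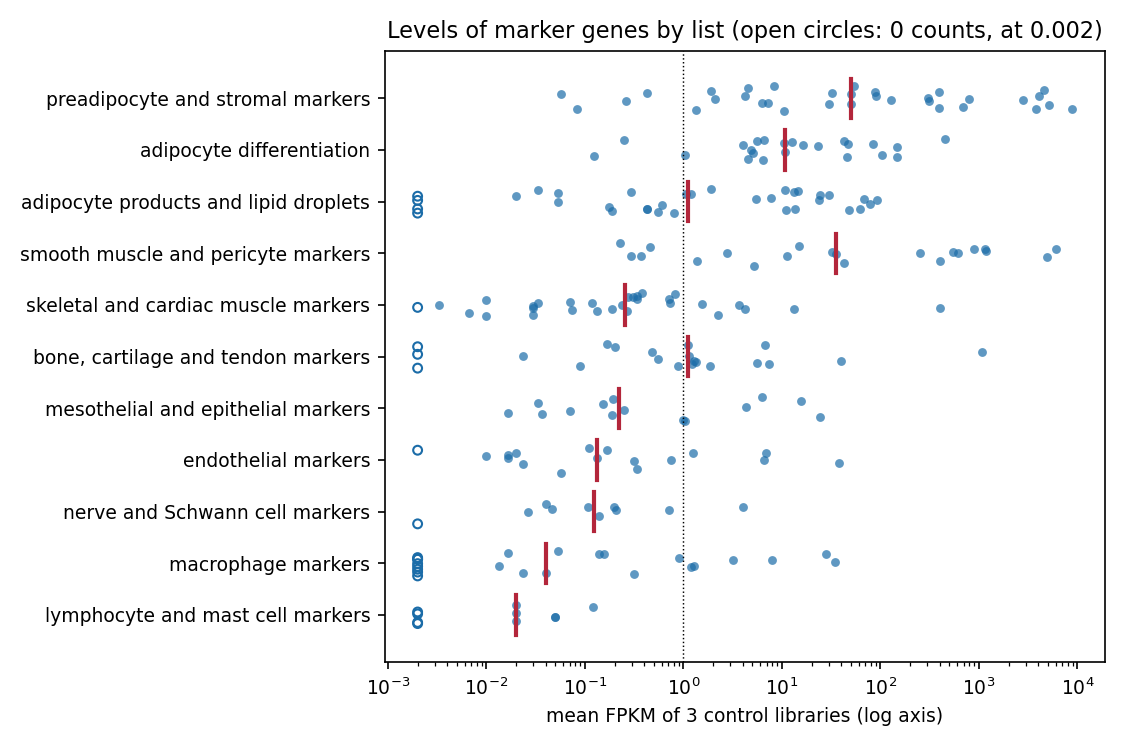
Mean FPKM over the 3 control libraries, on a log axis, of each member of 11 marker lists, with a red bar at each list's median, a dotted line at 1 FPKM and open circles for members with 0 counts. Stromal and smooth muscle lists have the highest medians, at 50.4 and 35.4 FPKM, and macrophage and lymphocyte lists the lowest.

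Contractile genes of the smooth muscle and myofibroblast type were nearly as high as the collagens. *ACTA2*, smooth muscle actin, had 6033, 6076 and 5866 FPKM in replicates 1, 2 and 3, with counts that were not whole and a level that is therefore uncertain. *TAGLN*, which encodes the actin-binding protein transgelin, had 4536, 4996 and 5030 FPKM, and *DES*, the muscle filament desmin, had 412, 439 and 344 FPKM. None of the 3 varied beyond genes of like level. *TPM2* (tropomyosin), *ACTG2* (enteric smooth muscle actin), *CALD1* (caldesmon) and *CNN1* (calponin) stood at 1175, 1161, 608 and 251 FPKM. The markers that define mature smooth muscle and pericytes were low, with *MYH11*, the smooth muscle myosin heavy chain, at 1.36 FPKM, *MCAM* at 0.227 FPKM, *RGS5* with 42 counts over the 3 libraries and *MYOCD*, the cofactor that switches on smooth muscle genes, with 48.

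Most markers of other lineages had 0 or few counts. The skeletal and cardiac muscle list had a median of 0.253 FPKM over 30 genes, with *MYOD1* at 4 counts, *PAX7* at 1, *MYH7* at 0 and *MYL1*, a myosin light chain, at 13.4 ± 2.35 FPKM. Of the bone and cartilage markers *COL2A1*, *COL10A1* and *CNMD* had 0 counts, whereas *RUNX2*, an early bone factor, had 6.74 FPKM and *SPP1* (osteopontin), which many cell types secrete, had 1063 ± 108 FPKM. The 17 endothelial markers had a median of 0.133 FPKM and summed to 75.7, 82.5 and 81.9 CPM in replicates 1, 2 and 3. Of these *VWF* had 8 counts, *KDR* 5, *CDH5* 20 and *EMCN* 0, while *PECAM1* was at 6.87 FPKM and *EGFL7* at 37.8 FPKM. The 23 macrophage markers summed to 122, 117 and 117 CPM. Among them *PTPRC* (CD45), *CD163*, *C1QA*, *C1QB*, *SIGLEC1*, *ADGRE1* and *TREM2* had 0 counts and *CSF1R* had 7, while *CD86* and *CD14* had 34.8 and 28.3 FPKM. The 10 lymphocyte and mast cell markers in the file summed to 0.517, 0.467 and 0.527 CPM.

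Genes of the fibrillar matrix were among the highest of the cultures. Of 33 genes for fibrillar collagens and their assembly, 30 reached 10 FPKM and 20 reached 100 FPKM, with a median of 172 FPKM. Beside *COL1A1*, the second collagen I chain *COL1A2* had 4046 ± 160 FPKM, *COL3A1* had 2768 ± 56.5 FPKM and *COL6A2* had 1889 FPKM. The collagen chaperone *SERPINH1* and the crosslinking enzyme *LOXL2* reached 1272 and 1184 FPKM. *SPARC*, a calcium-binding matrix glycoprotein, had 4920 ± 118 FPKM, and the small proteoglycans *FMOD* (fibromodulin), *BGN* (biglycan), *DCN* (decorin) and *LUM* (lumican) had 2678, 2488, 800 and 395 FPKM. These proteoglycans bind collagen fibrils, and all 4 were expressed in every replicate.

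Basement membrane genes were lower than fibrillar matrix genes, with a median of 38.5 FPKM over 22 genes. The collagen IV chains *COL4A2* and *COL4A1* had 298 and 277 FPKM, the heparan sulfate proteoglycan *HSPG2* (perlecan) had 160 FPKM and *NID1* (nidogen) had 133 FPKM. Laminin chains of mesenchymal tissue were present, with *LAMB1* at 97.8 FPKM, *LAMC1* at 90.8 FPKM and *LAMA4* at 71.6 FPKM, whereas *COL4A3*, a chain of kidney and lung basement membrane, had 0 counts. Matrix remodelling genes were also expressed. *MMP2* (gelatinase A) had 1136 FPKM, *CTSB* (cathepsin B) 910 FPKM and *MMP14*, a membrane-bound collagenase, 460 FPKM. *TIMP1*, an inhibitor of matrix metalloproteinases, had 1007, 965 and 1363 FPKM in replicates 1, 2 and 3. Replicate 3 was the highest, but this spread did not pass the test against genes of like level that is explained below (adjusted p = 0.0658, edgeR, Benjamini-Hochberg).

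Among the genes of carbon metabolism those of glycolysis were the highest. The 23 glycolysis rows had a median of 135 FPKM and 14 reached 100 FPKM, with the aldolase *ALDOA* at 2828 FPKM, the enolase *ENO1* at 2258 FPKM, the pyruvate kinase *PKM* at 2099 FPKM and the lactate dehydrogenase *LDHA* at 882 FPKM. The 21 genes of the tricarboxylic acid cycle had a median of 40.8 FPKM and the 35 respiratory chain subunits a median of 94.1 FPKM, and every gene of these 3 lists was at 1 FPKM or more.

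Lipid synthesis genes were expressed at middle levels. *SCD*, the desaturase that makes oleate, had 217, 197 and 178 FPKM in replicates 1, 2 and 3, and *FASN*, the fatty acid synthase, had 117, 117 and 107 FPKM. Replicate 3 was the lowest for both. It was the lowest for 14 of the 22 tested genes of fatty acid and triglyceride synthesis and the highest for 2. Over all tested genes it was the lowest for 37.5% and the highest for 38%. *FASN* and *SCD* are long genes, with implied lengths of 7744 and 5179 bases. *FADS2* and *FADS1* are short, with 1216 and 1038 bases, and replicate 3 was the lowest for both of these as well. They had 359, 344 and 339 CPM and 129, 131 and 124 CPM in replicates 1, 2 and 3. The longest genes had a median log2 ratio of -0.15 in replicate 3 over replicate 1 and the shortest one of 0.15, whatever their function. How far gene length accounts for the count of 14 was not tested. The desaturases *FADS2* and *FADS1* had 286 and 123 FPKM and the citrate lyase *ACLY* had 45.7 FPKM. The last step of triglyceride synthesis was unevenly represented, with *DGAT1* at 9.95 FPKM and *DGAT2*, the isoform most tied to fat storage, with 14 counts over the 3 libraries, not all of them whole. Cholesterol synthesis and uptake had a median of 24.1 FPKM over 21 genes, led by the prenyl transferase *FDPS* at 139 FPKM.

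Fatty acid oxidation had a median of 21.7 FPKM over 22 genes. The mitochondrial enzymes *ECHS1* and *HADH* had 203 and 82.8 FPKM, the carnitine transferase *CPT1A*, which admits fatty acids to mitochondria, had 4.86 FPKM, and its muscle form *CPT1B* had 0.72 FPKM. *PDK4*, a kinase that spares glucose during fat use, had 2 counts over the 3 libraries and *UCP2*, a mitochondrial carrier, had 1.

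The targets of the induction cocktail were present in part. *NR3C1*, the glucocorticoid receptor that dexamethasone binds, had 14.1, 12.5 and 12.0 FPKM in replicates 1, 2 and 3. *INSR*, the insulin receptor, had 1.54, 1.40 and 1.39 FPKM, while *IGF1R*, which binds insulin at high concentration, had 15.4, 13.2 and 12.5 FPKM. The insulin receptor was thus the lower of the pair in every replicate. The receptor substrates *IRS1* and *IRS2* had 8.75 and 1.69 FPKM. *NR3C2*, the mineralocorticoid receptor, had 0.257 FPKM.

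IBMX inhibits most cyclic nucleotide phosphodiesterases and blocks adenosine receptors. *PDE8A*, of a family that IBMX does not inhibit, was the highest phosphodiesterase of the list at 20.1 ± 1.21 FPKM. Among those it does inhibit, *PDE4A* stood at 10.8 FPKM, *PDE5A* at 10.02 ± 2.46 FPKM, *PDE1A* at 8.24 FPKM and *PDE4B* at 7.32 ± 1.89 FPKM, and *PDE3B*, the form through which insulin restrains lipolysis in fat cells, had 0.36 FPKM. *PDE5A*, which degrades cyclic GMP, had 84.2, 71.4 and 52.4 CPM in replicates 1, 2 and 3. Its ratio of highest to lowest library of 1.61 was beyond that of genes of like level (adjusted p = 0.0377, edgeR, Benjamini-Hochberg), with replicate 3 the lowest, and under the 2-fold limit set for a variable gene, and it missed the test with any 1 library left out (adjusted p = 0.27 to 0.99). Of the adenosine receptors *ADORA2B* had 46.5 ± 6.42 FPKM and *ADORA3* 0 counts.

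**Figure D3:**
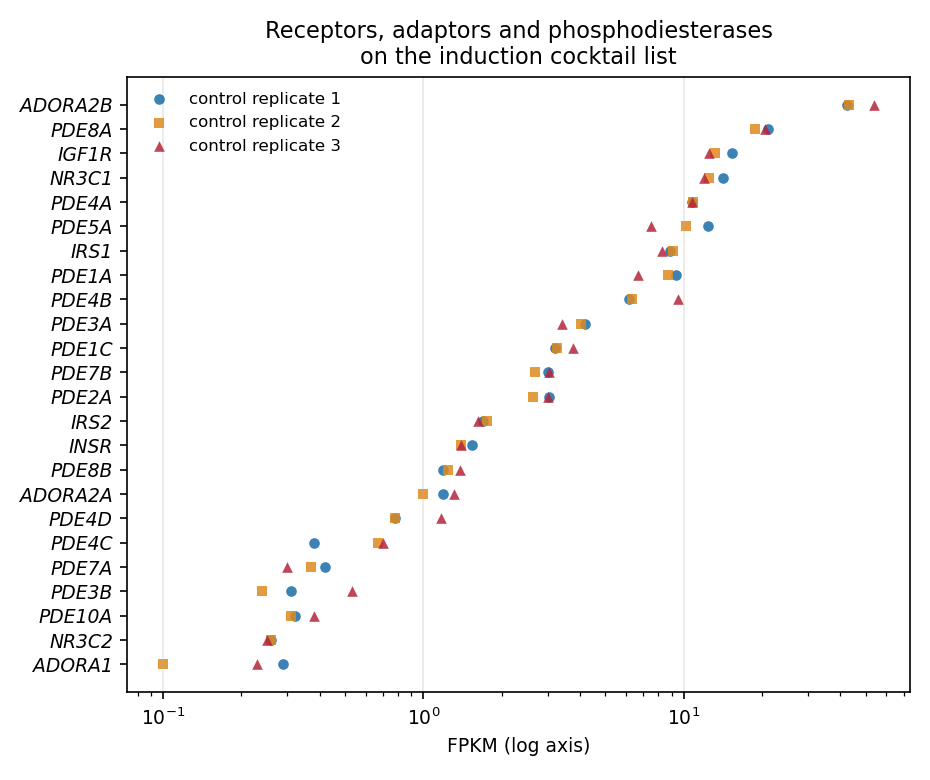
FPKM, on a log axis, of the 24 genes with a mean of at least 0.2 FPKM on the list of receptors, adaptors and phosphodiesterases tied to insulin, dexamethasone and IBMX, with 1 point for each of the 3 control replicates. *ADORA2B* and *PDE8A* lead, *IGF1R* and *NR3C1* follow at 12.0 to 15.4 FPKM, and *INSR* lies at 1.39 to 1.54 FPKM.

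Genes that glucocorticoids are known to induce were expressed at middle levels, with a median of 14.7 FPKM over 20 genes. *FKBP5*, a cochaperone that restrains the receptor, had 16.7 ± 1.03 FPKM, *TSC22D3* (GILZ) had 15.1 FPKM and *PER1*, a clock gene, had 6.5 FPKM. *ZBTB16*, a zinc finger factor that dexamethasone raises in many cells, had 1.04 FPKM. *DUSP1*, which switches off MAP kinases, and *ERRFI1*, which restrains the EGF receptor, had 93.4 and 99.9 FPKM, and growth factors induce these as well.

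Receptors for growth factors and cytokines were more fully represented than those for hormones. Of 45 growth factor receptors 32 reached 1 FPKM (63.8% over all genes), with *PDGFRB* the highest, the TGF-beta receptor *TGFBR2* at 63.2 FPKM, the Wnt receptor *ROR2* at 47.6 FPKM and *AXL* at 44.8 FPKM. Of 37 cytokine and innate receptors 26 reached 1 FPKM. Both counts lay near the share over all genes. *TNFRSF12A*, the receptor of TWEAK, led at 109 FPKM, and *IL6ST* (gp130), the signalling chain that receptors for IL-6, IL-11 and LIF share, had 55.9, 45.7 and 43.4 FPKM in replicates 1, 2 and 3. *IL4R* had 65.7 FPKM and *TLR8* 0 counts. Of 46 G protein-coupled and peptide hormone receptors 22 reached 1 FPKM and 6 reached 10 FPKM, among them the natriuretic peptide receptor *NPR2*, which is a guanylyl cyclase, at 22.6 FPKM and the angiotensin receptor *AGTR1* at 21.3 FPKM. *ADRB1*, a beta-adrenergic receptor through which catecholamines drive lipolysis, had 0 counts. Among 37 nuclear receptors the liver X receptors *NR1H2* and *NR1H3* led at 52.6 and 46.1 FPKM, followed by *RARA* at 36.1 FPKM and *PPARD* at 28.3 FPKM.

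Proliferation markers were low beside an inhibitor of division and beside genes of the stress responses. Cell cycle genes had a median of 5.13 FPKM over 40 genes, but *CDKN1A*, the cyclin-dependent kinase inhibitor p21, was the highest at 316 ± 5.94 FPKM, and the proliferation markers *MKI67*, *TOP2A* and *CDK1* had 2.69, 4.37 and 3.21 FPKM. Antioxidant genes driven by NRF2 had a median of 151 FPKM over 19 genes, with the ferritin chains *FTH1* at 4153 FPKM and *FTL* at 2061 FPKM and the heme oxygenase *HMOX1* at 371 FPKM. Genes of the unfolded protein and ATF4 response had a median of 49.7 FPKM over 28 genes, with *ATF4* itself at 456 FPKM and the serine synthesis enzyme *PSAT1* at 307 FPKM. *BNIP3* and *VEGFA*, which hypoxia induces, had 498 and 255 FPKM.

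Inflammatory and secreted genes included several of the abundant transcripts. *CCL2*, the chemokine that draws monocytes, had 842, 845 and 939 FPKM in replicates 1, 2 and 3, *SAA3*, an acute phase protein, had 626, 667 and 768 FPKM, and *LCN2*, a siderophore-binding lipocalin, had 578, 639 and 762 FPKM. The highest value of each was in replicate 3, although none of the 3 varied beyond genes of like level. The complement proteases *C1R* and *C1S* had 263 and 164 FPKM. *TNF*, *CXCL9*, *CCL4* and *CCL8* had 0 counts. Interferon-stimulated genes had a median of 5.65 FPKM over 46 genes, and *IFI6* was the highest at 109 FPKM.

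Most genes differed little between the 3 libraries. The median ratio of the highest to the lowest library was 1.17 over 12070 tested genes, with an upper quartile of 1.28. Spread was tested with a fit of 1 common mean for the 3 libraries in edgeR. In a first test the deviance of each gene from that mean was set against counting noise, and 3713 of 12070 genes exceeded it at an adjusted p under 0.05 (Benjamini-Hochberg), which is 30.8%. This count followed depth, with 6.71% called among the 2414 genes of lowest mean CPM and 67.4% among the 2414 of highest. The second test asked whether a gene varied beyond genes of like level, by using the trended dispersion, and called 66 genes (0.547%). Of these, 41 also had a ratio of at least 2 between the highest and lowest library (0.34% of tested genes), and they are called variable genes below. A ratio of at least 2 with no test was seen for 180 genes (1.49%). The gene lists were chosen with earlier results of these data known. A list's count of calls beside the share over all tested genes is therefore a description and not an independent test.

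Replicate 3 was the library apart in 38 of the 41 variable genes, high in 29 (0.24% of tested genes) and low in 9 (0.0746%). Replicate 1 was apart and low in 2, for *MMP9* by a very narrow margin, and replicate 2 apart and low in 1. Over all tested genes replicate 3 was the highest for 38% and the lowest for 37.5%. This is another measure than being the library apart. The share of all tested genes with replicate 3 apart was not counted, so the 38 of 41 has no such background beside it. Fits of the library pairs gave a biological coefficient of variation of 0.0584 for replicates 1 and 2, 0.0709 for 2 and 3 and 0.11 for 1 and 3. Genes beyond counting noise numbered 1564, 1538 and 3798 in these pairs, so that by this count replicate 2 was as near to 3 as to 1. Without replicate 3 the count of variable genes was 3, without replicate 1 it was 32 and without replicate 2 it was 27. What set the culture or library of replicate 3 apart was not tested.

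**Figure D4:**
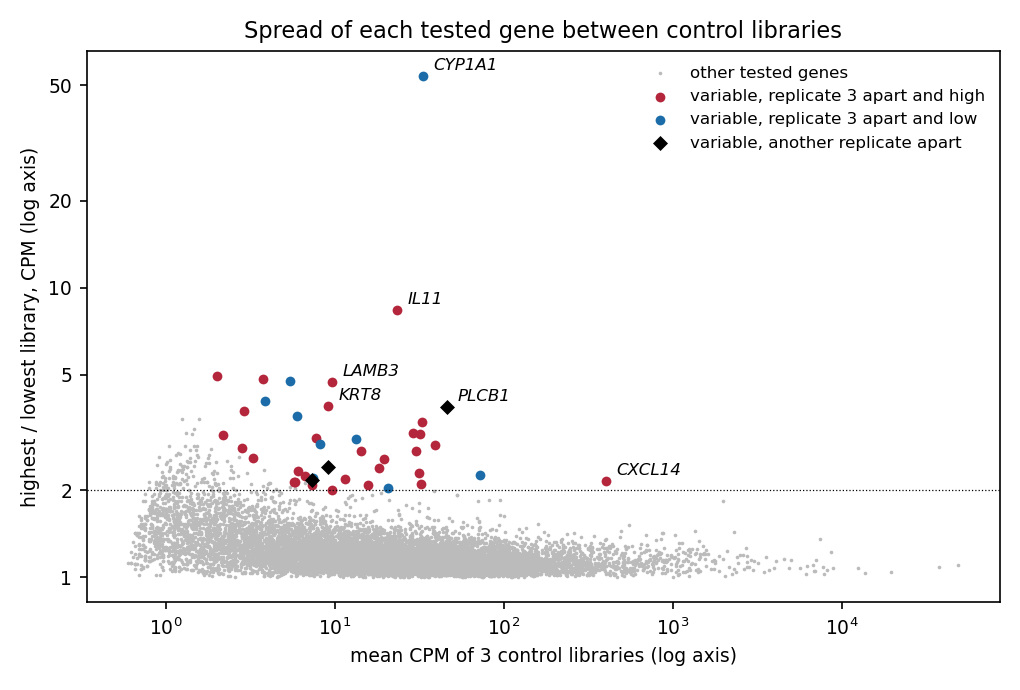
Ratio of the highest to the lowest control library against mean CPM, both on log axes, for the 12070 tested genes, with the 41 variable genes in colour and a dotted line at a ratio of 2. Red genes (replicate 3 high) outnumber blue ones (replicate 3 low) by 29 to 9, and *CYP1A1* and *IL11* lie farthest from 1.

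*CYP1A1*, a monooxygenase that the aryl hydrocarbon receptor induces, had the largest spread of all tested genes. It had 50.5 and 48.7 CPM in replicates 1 and 2 and 0.936 CPM in replicate 3, that is 21.2, 20.2 and 0.37 FPKM. Replicate 3 was thus almost without the transcript, while the others lay within 1.04-fold of each other. The ratio was 53.9 (adjusted p = 5.36e-79, edgeR, Benjamini-Hochberg), and without replicate 3 the gene was not called (adjusted p = 0.99). Other targets of the receptor moved less or not at all. *AHRR*, its repressor, had 75.9, 84.6 and 54.5 CPM, a ratio of 1.55 that did not pass (adjusted p = 0.0702). *TIPARP*, an ADP-ribosyltransferase that limits the receptor, had 56.9, 55.7 and 36.3 CPM, a ratio of 1.57 that did not pass either (adjusted p = 0.064). For each of them replicate 3 was the lowest. *NQO1*, a quinone reductase, had 16.2, 15.7 and 14.8 CPM and *AHR* itself had 108, 90.5 and 94.3 CPM. Of 8 tested genes on this list 2 were variable (0.34% over all tested genes), *CYP1A1* with replicate 3 low and *LAMB3* with replicate 3 high. The list summed to 436, 433 and 344 CPM in replicates 1, 2 and 3.

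Cytokines of the gp130 family varied in the other direction. *IL11*, which acts on fibroblasts and in matrix formation, had 6.67, 7.77 and 55.8 CPM in replicates 1, 2 and 3, a ratio of 8.38 (adjusted p = 4.94e-57). *LIF*, leukemia inhibitory factor, had 18.4, 16.5 and 52.0 CPM, a ratio of 3.16 (adjusted p = 1.83e-16). *IL6* had 22.6, 27.3 and 47.5 CPM, a ratio of 2.10 (adjusted p = 3.96e-05). The highest value of each was in replicate 3, by the widest margin for *IL11*. *CXCL14*, a chemokine of stroma and epithelium and the most abundant variable gene, had 280, 317 and 603 CPM, a ratio of 2.15 (adjusted p = 1.32e-11). Of 33 tested inflammatory genes 22 exceeded counting noise (30.8% over all tested genes), 5 varied beyond genes of like level (0.547%) and these 4 were variable (0.34%), all with replicate 3 high. Of the 33, 26 were the highest in replicate 3 (38%) and 3 the lowest (37.5%), and the list summed to 3445, 3617 and 4388 CPM. *PTGS2*, cyclooxygenase 2, also varied beyond genes of like level but under 2-fold, with 43.8, 39.0 and 75.03 CPM, and missed the test without replicate 2 (adjusted p = 0.125). Without replicate 3, neither *IL11* (ratio 1.17) nor *LIF* (ratio 1.12) was called (adjusted p = 0.99 each), nor were *IL6* (1.21) and *CXCL14* (1.13). Without replicate 1 the ratios of *IL6* and *CXCL14* were 1.74 and 1.90, under the 2-fold limit.

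A set of epithelial genes was likewise higher in replicate 3. *KRT8*, a keratin of simple epithelium, had 4.48, 5.49 and 17.5 CPM in replicates 1, 2 and 3, a ratio of 3.90 (adjusted p = 2.73e-14). *KRT5*, a keratin of basal epithelium, had 18.1, 21.1 and 56.6 CPM, a ratio of 3.13 (adjusted p = 9.04e-16), with counts that were not whole and a level that is uncertain. *SFN*, which encodes the 14-3-3 sigma protein of keratinocytes, had 4.54, 5.08 and 13.8 CPM, a ratio of 3.03 (adjusted p = 2.14e-08). In each of these, replicates 1 and 2 lay together and replicate 3 apart, and without replicate 3 the ratios were 1.22, 1.17 and 1.12 with no call. All 7 tested genes of the mesothelial and epithelial list were the highest in replicate 3 (38% over all tested genes). Of these, 2 were variable (0.34% over all tested genes). The 14 genes in the file summed to 56.7, 59.99 and 118 CPM in replicates 1, 2 and 3. *CDH1* (E-cadherin) had 3.22, 2.98 and 6.32 CPM, a ratio of 2.12 that did not pass (adjusted p = 0.0829). The markers *EPCAM* and *KRT18* had 11 counts and 1 count over the 3 libraries.

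Laminin chains and a collagen of the basement membrane under stratified epithelium went the same way. *LAMB3* had 5.69, 4.09 and 19.3 CPM in replicates 1, 2 and 3, a ratio of 4.71 (adjusted p = 4.25e-18). *LAMA3* had 13.7, 12.6 and 32.2 CPM, a ratio of 2.57 (adjusted p = 8.73e-10). For both chains replicate 3 was high, and without it the ratios were 1.39 and 1.09 with no call. *COL17A1*, a collagen of hemidesmosomes, the plaques that tie epithelial cells to their basement membrane, had 23.8, 26.1 and 68.2 CPM, a ratio of 2.86 (adjusted p = 9.17e-16). *ITGB4*, the integrin chain of hemidesmosomes, and *DSP*, the desmoplakin of desmosomes, were chosen after their values were seen. *ITGB4* had 7.18, 7.42 and 14.4 CPM and *DSP* had 5.40, 5.49 and 11.2 CPM, and each was variable with all 3 libraries. Neither call held without replicate 2 (adjusted p = 0.137 for *ITGB4* and 0.156 for *DSP*) or without replicate 3, and without replicate 1 *ITGB4* had a ratio of 1.94, under the 2-fold limit. Of 20 tested basement membrane genes 3 were variable (0.34% over all tested genes), each with replicate 3 high. Replicate 3 was the highest for 10 of the 20 (38% over all tested genes) and the lowest for 4 (37.5%). Whether the epithelial genes came from other cells in the culture of replicate 3 was not tested.

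Interferon-stimulated genes were lower in replicate 3. *IFIT2*, *IFIT3* and *IFIT1* encode proteins that bind foreign RNA or assist in blocking its translation. *IFIT2* had 8.45, 7.07 and 2.34 CPM in replicates 1, 2 and 3, a ratio of 3.61 (adjusted p = 4.71e-06). *IFIT3* had 17.7, 16.3 and 5.91 CPM, a ratio of 2.99 (adjusted p = 1.22e-08). *IFIT1* had 10.5, 10.5 and 3.63 CPM, a ratio of 2.90 (adjusted p = 5.48e-06). Without replicate 3 the ratios were 1.20, 1.09 and 1.01, and none of them was called. *ISG15*, a ubiquitin-like modifier, had 4.14, 5.96 and 1.46 CPM, a ratio of 4.07 (adjusted p = 5.88e-05). *DDX58*, the RNA sensor RIG-I, had 24.8, 24.9 and 12.2 CPM, a ratio of 2.04 (adjusted p = 0.000236). *OAS2* and *MX1*, antiviral effectors, varied beyond genes of like level but under 2-fold, with 86.0, 79.3 and 46.9 CPM for *OAS2* and 111, 117 and 71.8 CPM for *MX1*. Without replicate 2 neither *ISG15* (ratio 2.84, adjusted p = 0.121) nor *MX1* (adjusted p = 0.364) passed the test, and without replicate 3 none of these 4 genes did. Of 41 tested genes on the list, 8 varied beyond genes of like level (0.547% over all tested genes) and 6 were variable (0.34%), all with replicate 3 low. Of the 41, 32 were the lowest in replicate 3 (37.5%) and 6 the highest (38%), and the list summed to 1273, 1287 and 1048 CPM.

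**Figure D5:**
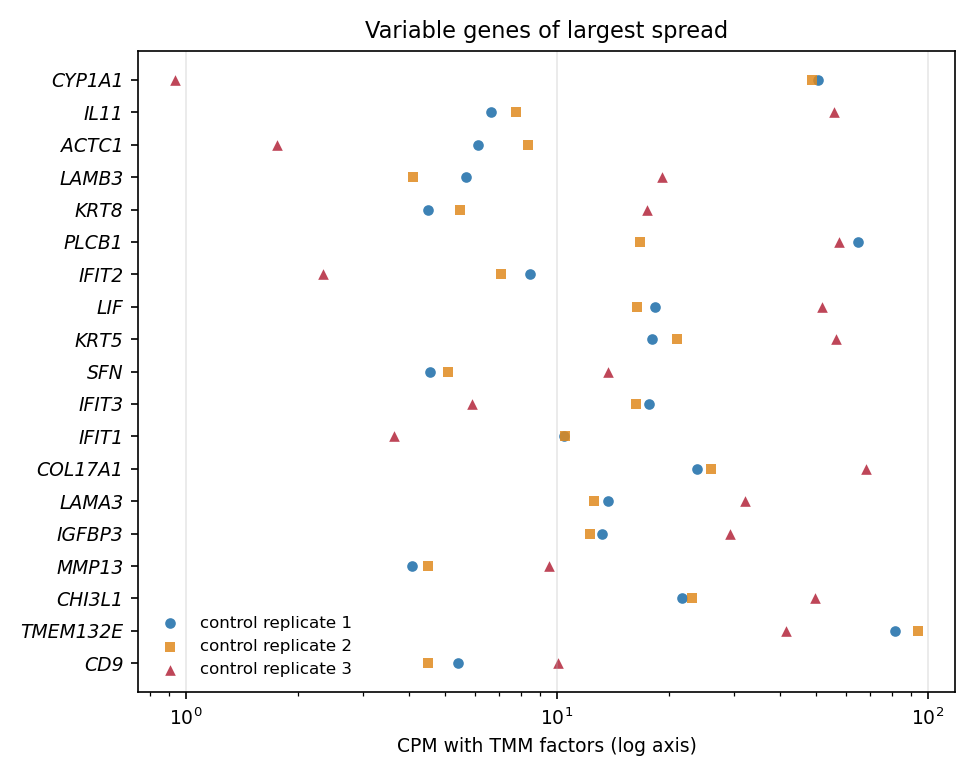
CPM, on a log axis, of 19 of the 20 variable genes of largest ratio among those with a mean of at least 5 CPM, with 1 point for each of the 3 control replicates. Replicate 3 (triangles) is apart from the others in 18 of the 19, and *PLCB1* is the exception, with replicate 2 low at 16.8 CPM.

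The remaining variable genes had mixed roles. *ACTC1*, the cardiac alpha actin, had 6.15, 8.35 and 1.76 CPM in replicates 1, 2 and 3, a ratio of 4.76 (adjusted p = 4.6e-08, edgeR). It was the only variable gene of the 7 tested muscle markers (0.34% over all tested genes). Among these 7, replicate 3 was the lowest for 5 (37.5% over all tested genes). *IGFBP3*, which binds insulin-like growth factors, had 13.3, 12.3 and 29.2 CPM, a ratio of 2.38 (adjusted p = 4.6e-08). *CHI3L1*, a chitinase-like glycoprotein, had 21.7, 23.1 and 49.6 CPM, a ratio of 2.28 (adjusted p = 4.6e-08). Replicate 3 was low for the first and high for the others, and without it the ratios were 1.36, 1.08 and 1.06 with no call. The matrix metalloproteinases *MMP13* and *MMP9* were the variable genes among 28 tested proteases and inhibitors (0.34% over all tested genes). *MMP13* had 4.08, 4.50 and 9.54 CPM. *MMP9* rose in near even steps with 4.71, 6.95 and 10.2 CPM. Its ratio was 1.47 without replicate 1 and also 1.47 without replicate 3, so replicate 1 counted as the one apart by a very narrow margin. *MMP9* was not called with any 1 library left out (adjusted p = 0.121 to 0.99). *TMEM132E*, a membrane protein, was low in replicate 3 with 81.7, 93.9 and 41.4 CPM, and *CD9*, a tetraspanin, was high with 5.40, 4.50 and 10.1 CPM. *ADRA2A*, the alpha 2A adrenergic receptor that restrains cyclic AMP, was the only variable gene of 29 tested hormone receptors (0.34% over all tested genes). It had 1.49, 1.58 and 5.62 CPM (adjusted p = 3.27e-06, edgeR). Without replicate 2, *TMEM132E* had a ratio of 1.98 and *CD9* one of 1.86, under the 2-fold limit, and *MMP13* kept a ratio of 2.33 but missed the test (adjusted p = 0.0585).

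*PLCB1*, a phospholipase C that acts downstream of G protein-coupled receptors, was the exception among the 20 variable genes of largest ratio, since replicate 3 was not apart. It had 64.8, 16.8 and 57.8 CPM in replicates 1, 2 and 3, a ratio of 3.87 (adjusted p = 1.64e-21), with replicate 2 low. Without replicate 2 its ratio was 1.13 (adjusted p = 0.997), and without replicate 3 it was the only one of the 20 genes of largest ratio that was still called.

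Many genes that define the cultures exceeded counting noise, but they had no call beyond genes of like level. Counting noise was exceeded by 88.9% of the tested smooth muscle and pericyte markers, 65.2% of the glycolysis genes, 63.3% of the stromal markers and 54.5% of the genes of fatty acid and triglyceride synthesis, where it was 30.8% over all tested genes and 67.4% among the 2414 of highest CPM. On the other 5 lists named next the share was 30% to 42.9%. No gene was variable, nor beyond genes of like level, on the lists of preadipocyte and stromal markers (30 tested), adipocyte differentiation (22), fatty acid and triglyceride synthesis (22), cholesterol synthesis and uptake (21), glycolysis (23), the tricarboxylic acid cycle (21), smooth muscle and pericyte markers (18), cell cycle (40) and nuclear receptors (26), at a background of 0.547% of tested genes. With lists of this size and that background few calls would be found in any list, so this count sets no list apart. On the list of adipocyte products 2 of 20 tested genes varied beyond genes of like level, and neither reached 2-fold. *CFD*, the secreted protease adipsin, had 9.94, 9.29 and 17.7 CPM in replicates 1, 2 and 3, a ratio of 1.91 (adjusted p = 0.00553). *ANGPTL4*, an inhibitor of lipoprotein lipase, had 12.0, 14.6 and 23.1 CPM, a ratio of 1.92 (adjusted p = 0.00538). Both were the highest in replicate 3, while *LPL* and *FABP4* did not pass the test. *CFD* passed without replicate 1 but not without replicate 2 or 3, and *ANGPTL4* did not pass with any 1 library left out.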

How the data were processed

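The authors checked the reads with FastQC 0.11.9, aligned them with HISAT 2.2.1 and deposited an estimated count and an FPKM value per gene and library. Genome build, annotation, counting tool and use of strand were not given in the sources used here. Library preparation is described as oligo(dT) priming with template switching in the paper and as depletion of ribosomal RNA in the labels. Of the deposited expected counts of the control libraries 5.42% were not whole, and all were rounded. FPKM values were used as deposited by the authors and summed to 629420, 653159 and 673489 in replicates 1, 2 and 3.

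Spread was tested in R 4.3.3 with edgeR 4.0.16 on the 3 control libraries (TMM factors, default filterByExpr filter, an intercept as the only term, goodness-of-fit test with dispersion 0 or the trended dispersion, Benjamini-Hochberg adjustment over 12070 genes), and the functions were tested on simulated data. Gene lists and naming rules were chosen with earlier results of these data known. The named genes are the 20 of highest FPKM, the 20 variable genes of largest ratio with a symbol and a mean of at least 5 CPM, the leading and variable members of each list, members that define a cell type or are targets of the cocktail, and *COL1A1*, *FN1*, *VIM*, *LPL* and *PLAAT3*. Some genes that these rules name are not reported here. Of the symbols 97.5% matched RefSeq's table of the pig genome, used for names only. Library totals, DESeq2 1.42.0 size factors, other filters, statistics, dispersions and ratios, and each library left out were tried as alternatives. A correction for gene length was added after the data were seen.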

Additional observations from a re-analysis of the deposited data

How the results depend on the processing

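No paired analysis was possible because 1 group was described and no groups were compared. With each replicate left out in turn, the genes beyond counting noise ranged from 1538 to 3798, those beyond genes of like level from 5 to 60, and the variable genes from 3 (without replicate 3) to 32. Each of these fits estimated its own dispersion, and the biological coefficient of variation was largest, at 0.11, without replicate 2. A call can thus be lost without replicate 2 though the ratio holds. *DSP* had a ratio of 2.07 without replicate 2, not called, and 2.05 without replicate 1, called. A ratio limit of 1.5 in place of 2 gave 65 variable genes and a limit of 3 gave 16. With FPKM rescaled to a larger sum that was the same in every library, that of TPM values, 1125 genes reached 100 FPKM. DESeq2 size factors gave 41 variable genes, library totals 37, no filter 53, a stricter filter 35, the Pearson statistic 43, a common dispersion 49, and ratios on FPKM 40. The correction for gene length, chosen after seeing the data, gave 44 variable genes, of which 37 were among the 41. The 20 variable genes of largest ratio were all still called with DESeq2 size factors, library totals, the Pearson statistic, a common dispersion, the length correction and without replicate 1, whereas 16 were without replicate 2 and 1 without replicate 3. Depth limits the calls, since genes of low counts need large ratios to pass, and 3 cultures of 1 animal cannot show how controls of other animals vary.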

Other observations

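The genes here were chosen after their values were seen and lie outside the rule for named genes. Secreted growth regulators were among the abundant transcripts of the control cultures. *IGFBP2*, which binds insulin-like growth factors, had 2058 ± 350 FPKM, *CLU*, which encodes the extracellular chaperone clusterin, had 1755 ± 152 FPKM with counts that were not whole, *SFRP2*, a secreted modulator of Wnt signalling, had 1533 ± 37.0 FPKM and *SERPINF1*, the antiangiogenic protein PEDF, had 1365 ± 131 FPKM (SD, n = 3).

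Several secreted proteins varied beyond genes of like level with replicate 3 high. *AREG* (amphiregulin), a ligand of the EGF receptor, had 28.7, 31.0 and 57.1 CPM in replicates 1, 2 and 3, a ratio of 1.99 (adjusted p = 1.32e-05, edgeR, Benjamini-Hochberg). *EREG* (epiregulin) had 27.8, 23.6 and 42.6 CPM, a ratio of 1.80 (adjusted p = 0.0123), with counts that were not whole. *WNT5A*, a ligand of noncanonical Wnt signalling, was variable with 11.5, 12.0 and 23.9 CPM. *SFRP1*, a secreted inhibitor of Wnt ligands, had 75.3, 73.4 and 136 CPM, a ratio of 1.85 (adjusted p = 2.77e-07). *TGFBI*, a matrix protein that TGF-beta induces, had 472, 474 and 716 CPM, a ratio of 1.52 (adjusted p = 0.00626), and *COL7A1*, the collagen of anchoring fibrils, had 39.8, 42.7 and 76.4 CPM, a ratio of 1.92 (adjusted p = 5.29e-06). None of these 6 genes was called without replicate 3, *EREG* and *TGFBI* were not without replicate 2 (adjusted p = 0.997 and 0.489), and *WNT5A* without replicate 1 had a ratio of 1.99.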
